A study of Mus musculus with 14 samples.

Results

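Carbonic anhydrases convert carbon dioxide and water into bicarbonate and a proton, and back again. The 9 listed members of the family (Car1, Car2, Car3, Car4, Car5a, Car8, Car12, Car13 and Car14) were followed here across cultures and tissues, out of 19938 genes measured. Each was taken by its symbol and read from the probe set of that symbol alone with the highest mean; every member had 1 such probe set. Each probe set reports one gene on its own scale, so levels were compared between groups and never between genes.

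The study measured RNA of C57BL/6 mouse material on Affymetrix gene arrays, with 14 arrays in 7 groups of 2. Organoids, which are epithelial structures grown from tissue in a gel, came from gallbladder, liver and small intestine, and the whole tissue of the same 3 organs was measured beside them. All undifferentiated organoids shared Matrigel, AdDMEM/F12 medium, B27, N2, 1.25 uM N-acetylcysteine, EGF, FGF10 and HGF at 50 ng/mL each, 10 mM nicotinamide, and conditioned media with R-spondin 1 (which strengthens Wnt signalling) and noggin (which blocks BMP signalling). Differentiated gallbladder organoids had been kept for 2 weeks after nicotinamide, noggin and R-spondin 1 were withdrawn from that medium. The labels give no age, sex or genotype beyond the strain. They do not say whether the 2 arrays of a group came from separate mice or cultures, so the spread between them, on which every p-value below rests, may be technical.

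As background, the members work in different places. Car1, Car2, Car3 and Car13 are cytosolic; Car2 is the fast enzyme of many secretory epithelia and Car3 a slow one known from muscle, fat and rodent liver. Car5a lies in the mitochondria of hepatocytes, where it supplies bicarbonate to carbamoyl phosphate synthetase (Cps1) and pyruvate carboxylase (Pcx). Car4 is tied to the outer face of the plasma membrane by a lipid anchor, Car12 and Car14 span the membrane with the enzyme outside, and Car8 has lost the catalytic activity and binds an IP3 receptor. In the gallbladder the family serves the exchange of bicarbonate and protons by which bile is acidified and concentrated, and in the intestine it serves bicarbonate secretion and salt uptake.

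RefSeq promoter sequences (GRCm38.p6) were matched by symbol for 4 of the 9 members, Car4, Car5a, Car12 and Car14. The 250 bases before the annotated start are shown for Car5a and Car4, whose tissue patterns were opposite: Car5a was high in liver tissue, and Car4 was high in gallbladder and intestine tissue and low in liver tissue. The Car5a window lies on chr8:121944913-121945162, minus strand, and the Car4 window on chr11:84957504-84957753, plus strand, each written 5′ to 3′ with matches of the motifs searched in capitals.
Car5a: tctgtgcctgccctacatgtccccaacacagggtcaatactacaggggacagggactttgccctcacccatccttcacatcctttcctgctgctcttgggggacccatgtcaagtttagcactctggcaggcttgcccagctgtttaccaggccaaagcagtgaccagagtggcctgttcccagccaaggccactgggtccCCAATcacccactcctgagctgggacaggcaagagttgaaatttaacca
Car4: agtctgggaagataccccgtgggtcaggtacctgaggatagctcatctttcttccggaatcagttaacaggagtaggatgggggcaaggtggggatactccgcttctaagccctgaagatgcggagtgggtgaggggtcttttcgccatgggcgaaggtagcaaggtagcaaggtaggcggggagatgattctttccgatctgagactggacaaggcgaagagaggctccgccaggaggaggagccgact
The capitals in Car5a mark CCAAT, which begins 49 bases before the start and which 33.8% of the 32851 promoter windows of this length hold on either strand. In the Car4 window none of the motifs searched was found. The motifs, each searched on both strands, were TATAAA (in 12.4% of all windows), CCAAT, the HNF1 site (0.00913%), an HNF4 site (CAAAGTCCA, 0.384%), a CDX site (TTTATNG, 9.81%) and the core of the hypoxia response element (ACGTG, 16.6%). Among the other windows, Car14 held ACGTG on the minus strand, beginning 7 bases before the start, and Car12 held none. A match describes letters and shows no binding.

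Across genes, the 2 arrays of an organoid group correlated at 0.996 to 0.998 and those of a tissue at 0.965 to 0.982. In tissues the pooled SD of a gene was 0.289 to 0.404 log2 units, against 0.0952 to 0.136 in organoids. A difference of 1 log2 unit is a 2-fold ratio of signal. Marker genes showed that the tissue arrays held more than the labelled epithelium. The 8 hepatocyte markers averaged 12.99 and 13.96 in gallbladder tissue replicates 1 and 2, against 14.20 and 14.10 in liver tissue, 8.45 and 8.79 in intestine tissue, and 6.79 to 8.35 in organoids; albumin read 14.30 on both gallbladder tissue arrays. The 5 measured pancreatic acinar markers averaged 7.18 in intestine tissue replicate 1 and 12.84 in replicate 2. The listed epithelial markers of bile duct and gallbladder (6 of 7 measured) averaged 10.08 to 11.66 everywhere except liver tissue, at 7.43 and 7.23. They read 10.60 and 10.08 in gallbladder tissue, 10.65 and 10.49 in intestine tissue and 11.10 and 11.03 in intestine organoids. The list therefore did not set gallbladder apart from intestine. The 7 enterocyte markers averaged 13.27 and 13.16 in intestine tissue and 11.94 and 11.87 in intestine organoids. Smooth muscle markers (6) averaged 13.20 and 12.78 in gallbladder tissue and 6.69 to 7.02 in organoids. In such whole tissue, fewer cells of a type and less RNA per cell cannot be told apart. The part of these cells in the results below was not tested, also where marker values are given.

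**Figure D1:**
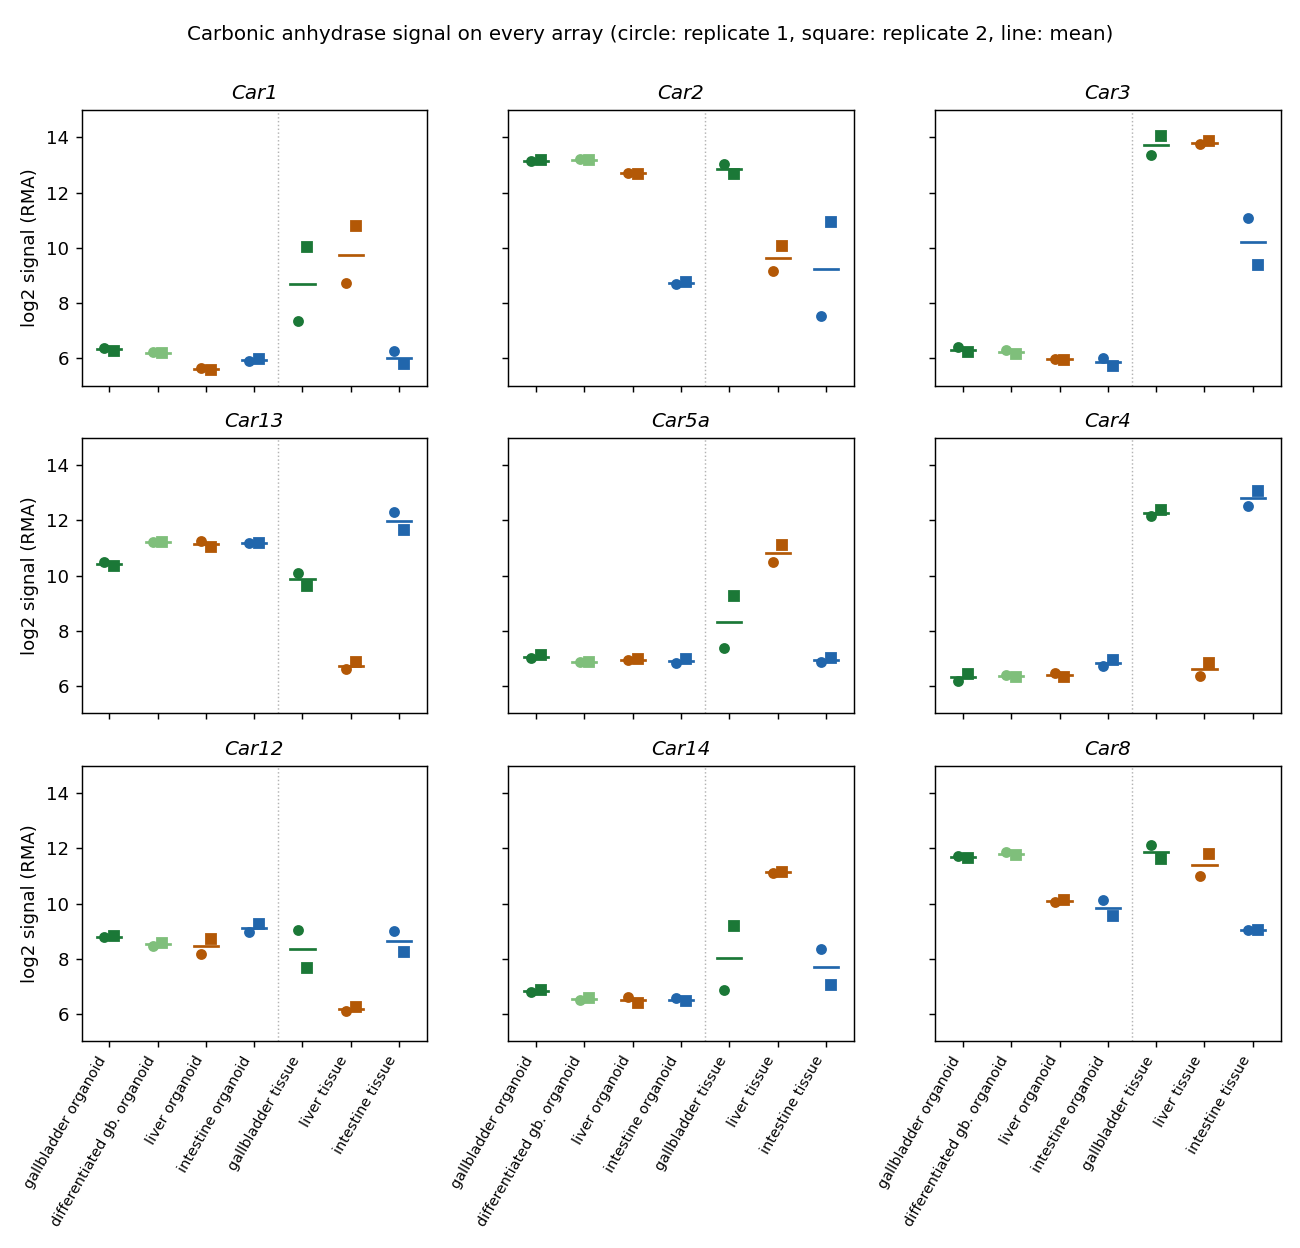
Log2 RMA signal (vertical axis) of the 9 carbonic anhydrases on each of the 14 arrays, by group, with organoids left of the dotted line and tissues right of it (gb., gallbladder; circle, replicate 1; square, replicate 2; line, group mean). Organoid replicates nearly coincide, while tissue pairs such as Car1 in gallbladder (7.33 and 10.04) and Car2 in intestine (7.52 and 10.95) lie far apart.

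Car2, the fast cytosolic enzyme, was high in gallbladder tissue and in gallbladder and liver organoids. Its log2 signal was 13.14 and 13.18 in gallbladder organoids, 13.23 and 13.17 in differentiated gallbladder organoids, 12.72 and 12.68 in liver organoids and 13.05 and 12.69 in gallbladder tissue. Intestine organoids read 8.68 and 8.76, liver tissue 9.16 and 10.07, and intestine tissue 7.52 and 10.95. The first 4 groups therefore overlapped with none of the last 3. Gallbladder organoids exceeded intestine organoids by 4.44 ± 0.81 log2 units (SE; a 21.7-fold ratio of signal; adjusted p = 0.00183, limma, Benjamini-Hochberg over all genes, as for every adjusted p here), and liver organoids exceeded them by 3.98 ± 0.81 (adjusted p = 0.00413). Liver organoids also exceeded liver tissue, by 3.08 ± 0.81 (adjusted p = 0.00983). That call was lost without liver tissue replicate 1 (2.63, adjusted p = 0.0671).

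Gallbladder tissue carried more Car2 than liver tissue, by 3.25 ± 0.81 (adjusted p = 0.00803), and more than intestine tissue, by 3.63 ± 0.81 (adjusted p = 0.00468). A fit to the compared arrays alone kept the first call and ended the second (adjusted p = 0.11). The first call was lost without liver tissue replicate 1 (2.80, adjusted p = 0.0538). The second held without any one array, but its size ranged from 1.92 to 5.35 according to which of the intestine tissue arrays was left out. The same arrays set the sign of Car2 in the other comparisons with intestine tissue. Intestine organoids minus intestine tissue was -0.52 (adjusted p = 0.695) with both, -2.23 (adjusted p = 0.0004) without replicate 1 and 1.20 (adjusted p = 0.0123) without replicate 2. Liver tissue minus intestine tissue was 0.38 (adjusted p = 0.762) with both, -1.34 (adjusted p = 0.00676) without replicate 1 and 2.10 (adjusted p = 0.000473) without replicate 2. Replicate 2 is the array with the acinar markers, whose member Cpa1, a pancreatic protease, read 6.79 in replicate 1 and 13.52 in replicate 2; their part in the Car2 value was not tested. From culture to tissue in the gallbladder, Car2 differed by 0.29, with a 95% interval from -1.51 to 2.09 (adjusted p = 0.79), an interval that holds a 2-fold difference either way. Its width comes from the spread pooled over all 7 groups, in which intestine tissue had an SD of 2.429. Gallbladder organoids had 0.027 and gallbladder tissue 0.257.

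Car13, another cytosolic enzyme, was lowest in liver tissue. It read 6.60 and 6.86 there, below every other array. Intestine tissue was highest at 12.29 and 11.64, followed by differentiated gallbladder organoids (11.22 and 11.23), intestine organoids (11.20 and 11.17) and liver organoids (11.25 and 11.05), then gallbladder organoids (10.50 and 10.34) and gallbladder tissue (10.11 and 9.63). In this order, intestine organoids and liver organoids did not differ beyond the sum of their SDs. Liver organoids exceeded liver tissue by 4.42 ± 0.21 (21.4-fold; adjusted p = 1.83e-07). Gallbladder tissue exceeded liver tissue by 3.14 ± 0.21 (adjusted p = 3.24e-06) and lay below intestine tissue (difference -2.10 ± 0.21, adjusted p = 3.3e-05). Those 3 calls held without any one array.

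Within the gallbladder, Car13 was the member closest to the threshold on differentiation. It read 0.81 ± 0.21 log2 units higher in differentiated than in undifferentiated organoids (adjusted p = 0.0658), and the arrays did not overlap. Without either intestine tissue array the same difference had an adjusted p of 0.0178, and without either gallbladder tissue array 0.0344; the difference itself does not use these arrays, which enter through the shared spread. Differentiated organoids exceeded gallbladder tissue by 1.36 ± 0.21 (adjusted p = 0.000652), while undifferentiated organoids differed from that tissue by 0.55 ± 0.21 (adjusted p = 0.0557; 0.0206 without gallbladder tissue replicate 1, and 0.0185 without either intestine tissue array). Gallbladder organoids lay below intestine organoids (-0.77 ± 0.21, adjusted p = 0.0182), a call lost when either array of either group was left out (adjusted p = 0.0535 to 0.109). Against liver organoids the difference was -0.73 ± 0.21 (adjusted p = 0.0517), with an adjusted p of 0.0155 without either intestine tissue array and 0.0285 without either gallbladder tissue array. Intestine organoids lay below intestine tissue (-0.78 ± 0.21, adjusted p = 0.0165), a call lost without intestine tissue replicate 1 (-0.46, adjusted p = 0.115) and without either intestine organoid array (adjusted p = 0.067 and 0.0798).

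Car1, the cytosolic form best known from red blood cells and colon epithelium, was low in every organoid and variable in tissue. Its signals were 5.57 to 6.36 over the 8 organoid arrays and 6.25 and 5.77 in intestine tissue. Gallbladder tissue read 7.33 and 10.04, and liver tissue 8.73 and 10.77. These tissues overlapped with each other and with none of the organoids. Liver organoids lay below liver tissue (-4.13 ± 0.77, 17.5-fold, adjusted p = 0.00136), and liver tissue exceeded intestine tissue by 3.74 ± 0.77 (adjusted p = 0.00327). Both calls held without any one array, the second with values from 2.72 to 4.76.

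The Car1 calls of the gallbladder did not hold without gallbladder tissue replicate 2. Gallbladder organoids minus tissue was -2.38 ± 0.77 (adjusted p = 0.0283) and differentiated organoids minus tissue -2.50 ± 0.77 (adjusted p = 0.0255). Without gallbladder tissue replicate 2 these became -1.02 (adjusted p = 0.198) and -1.14 (adjusted p = 0.163). The first was also lost without either gallbladder organoid array (adjusted p = 0.0927 and 0.106), and the second without either differentiated organoid array (adjusted p = 0.0949 and 0.0953). Gallbladder tissue minus intestine tissue, 2.67 ± 0.77 (adjusted p = 0.0179), was lost without gallbladder tissue replicate 2 (1.32, adjusted p = 0.106) and without intestine tissue replicate 2 (2.44, adjusted p = 0.0771). Gallbladder tissue minus liver tissue was -1.06 ± 0.77 (adjusted p = 0.281) and -2.42 (adjusted p = 0.00897) without gallbladder tissue replicate 2. Alas2, the heme synthesis enzyme of red cell precursors, read 6.87 and 8.85 in gallbladder tissue, 9.35 and 9.14 in liver tissue and 6.53 and 6.36 in intestine tissue, higher on the gallbladder array with more Car1 and lower on the liver array with more Car1. Of 8 erythroid markers 2 were measured, and the other, the red cell anion exchanger Slc4a1, read 7.24 and 7.42 in gallbladder tissue and 8.0 and 7.79 in liver tissue. Hepatocyte markers also moved with Car1 in gallbladder tissue (12.99 and 13.96), but not in liver tissue (14.20 and 14.10, with Car1 at 8.73 and 10.77). The part of either cell type was not tested.

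Car3 had the widest range of the family, 7.95 log2 units between group means. It was near the bottom of its range in all cultures, from 5.71 to 6.40 over the 8 organoid arrays. Liver tissue read 13.76 and 13.86, gallbladder tissue 13.35 and 14.07, and intestine tissue 11.06 and 9.39. Tissue and organoid arrays did not overlap. Organoids lay below their tissue in liver (-7.86 ± 0.43, 233.0-fold, adjusted p = 3.54e-07), gallbladder (-7.41 ± 0.43, 170.0-fold, adjusted p = 8.59e-07) and intestine (-4.37 ± 0.43, adjusted p = 3.6e-05), and differentiated organoids did not approach the gallbladder (-7.49 ± 0.43, adjusted p = 8.9e-07). The tissue signals lie near the top of the scale, where the highest value on any array was 14.78 and differences can be compressed.

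Liver and gallbladder tissue did not differ beyond their spread in Car3 (gallbladder minus liver -0.10, 95% interval -1.05 to 0.85). Both exceeded intestine tissue, by 3.59 ± 0.43 (adjusted p = 8.47e-05) and 3.49 ± 0.43 (adjusted p = 0.000112), and these calls, like those against organoids, held without any one array. Car3 is also a fat cell gene. The 6 measured adipocyte markers averaged 8.87 and 9.93 in gallbladder tissue, 7.14 and 8.76 in liver tissue, 8.73 and 8.0 in intestine tissue and 6.41 to 6.57 in organoids. In gallbladder tissue all 6 were higher on the array with more Car3, and in intestine tissue 5 of 6 were, the exception being Cidec, a lipid droplet protein (11.45 on replicate 1 and 12.15 on replicate 2). In liver tissue all 6 were higher on replicate 2, while Car3 read 13.76 and 13.86. The 6 skeletal muscle markers averaged 6.81 to 7.49 on every array. Single ones read up to 10.64 in intestine organoids and up to 8.95 in intestine tissue. The part of fat cells in the Car3 values of gallbladder and intestine was not tested.

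Car5a, the mitochondrial enzyme, was a liver tissue gene in these data. Liver tissue read 10.51 and 11.12 and gallbladder tissue 7.36 and 9.26, while all organoid and intestine tissue arrays lay between 6.83 and 7.11. The order below gallbladder tissue held no pair of neighbours that differed beyond their spread. Liver organoids lay below liver tissue (-3.87 ± 0.46, 14.6-fold, adjusted p = 6.48e-05), and the difference of liver from intestine organoids was 0.04 (95% interval -0.99 to 1.06). Liver tissue exceeded intestine tissue by 3.86 ± 0.46 (adjusted p = 8.53e-05). Gallbladder tissue lay below liver tissue (-2.51 ± 0.46, adjusted p = 0.0015), from -3.46 to -1.56 over the omissions of single arrays, where the extremes came from the gallbladder tissue arrays. A fit to the arrays of these 2 tissues alone did not call this difference (adjusted p = 0.0636).

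The smaller Car5a differences of the gallbladder did not hold. Gallbladder organoids minus tissue was -1.25 ± 0.46 (adjusted p = 0.0456) and lost its call in 11 of 14 single omissions, down to -0.30 (adjusted p = 0.268) without gallbladder tissue replicate 2. Gallbladder tissue minus intestine tissue was 1.36 ± 0.46 (adjusted p = 0.035), lost in 11 of 14 omissions, with 0.41 (adjusted p = 0.142) without the same array. Differentiated organoids minus tissue was -1.46 ± 0.46 (adjusted p = 0.0273), and it became -0.51 (adjusted p = 0.0807) without that array and lost its call without either differentiated organoid array (adjusted p = 0.1 and 0.099). Gallbladder tissue replicate 2 is the array with more hepatocyte marker signal (13.96 against 12.99), Car5a (9.26 against 7.36) and Car14 (9.20 against 6.85); whether hepatocytes carried the Car5a signal there was not tested.

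Car4, the lipid-anchored enzyme of the cell surface, was high in gallbladder and intestine tissue and low everywhere else. Gallbladder tissue read 12.15 and 12.39 and intestine tissue 12.53 and 13.08. Every other array lay between 6.18 and 6.93, liver tissue (6.37 and 6.83) included. Gallbladder organoids lay below gallbladder tissue (-5.96 ± 0.21, 62.3-fold, adjusted p = 3.58e-08), and differentiation left them there (-5.91 ± 0.21, adjusted p = 4.97e-08). Intestine organoids lay below intestine tissue by nearly the same amount (-5.98 ± 0.21, 63.2-fold, adjusted p = 6.24e-08). Liver organoids minus liver tissue was -0.21 (95% interval -0.66 to 0.25, adjusted p = 0.475).

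Among tissues, gallbladder exceeded liver in Car4 by 5.67 ± 0.21 (adjusted p = 7.82e-08), and liver lay below intestine (-6.20 ± 0.21, 73.6-fold, adjusted p = 1.18e-08). All these Car4 calls held without any one array. Gallbladder tissue minus intestine tissue was -0.53 ± 0.21 (adjusted p = 0.0572), with 0.0121 without intestine tissue replicate 1 and 0.0406 without either liver tissue array. Gallbladder organoids minus intestine organoids was -0.51 ± 0.21 (adjusted p = 0.0773), with 0.0371 without either intestine tissue array. The enzyme is known from capillary endothelium as well as from epithelium. Endothelial markers (6) averaged 8.80 and 9.54 in gallbladder tissue, 8.08 and 8.49 in intestine tissue and 9.45 and 9.62 in liver tissue, where Car4 was low, and 6.26 to 6.53 in organoids. Their part, and that of smooth muscle markers (13.20 and 12.78 in gallbladder, 11.41 and 11.31 in intestine, 7.83 and 7.90 in liver tissue), was not tested.

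Car12, a transmembrane enzyme of absorptive and secretory epithelia, had the narrowest range of the membrane forms, 2.95 log2 units between group means. Liver tissue was lowest at 6.11 and 6.24. Intestine organoids were highest at 8.98 and 9.25. Between them, no neighbours in the order differed beyond their spread, with gallbladder organoids at 8.77 and 8.82, intestine tissue at 9.02 and 8.24, differentiated organoids at 8.47 and 8.57, liver organoids at 8.16 and 8.73 and gallbladder tissue at 9.05 and 7.67. Liver organoids exceeded liver tissue by 2.27 ± 0.39 (adjusted p = 0.000839), gallbladder tissue exceeded liver tissue by 2.19 ± 0.39 (adjusted p = 0.00138), and liver tissue lay below intestine tissue (-2.46 ± 0.39, adjusted p = 0.000649). Those calls held without any one array. Gallbladder organoids minus tissue was 0.43 (adjusted p = 0.39), and 1.13 (adjusted p = 0.0146) without gallbladder tissue replicate 1. Gallbladder minus intestine tissue was -0.27 (adjusted p = 0.604), and -0.96 (adjusted p = 0.0318) without the same array.

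Car14, the transmembrane enzyme of the hepatocyte surface, followed Car5a. Liver tissue read 11.12 and 11.16, and the 8 organoid arrays lay between 6.40 and 6.88. Gallbladder tissue was split at 6.85 and 9.20 and intestine tissue at 8.36 and 7.06. Liver organoids lay below liver tissue (-4.63 ± 0.61, 24.7-fold, adjusted p = 0.000136), gallbladder tissue below liver tissue (-3.11 ± 0.61, adjusted p = 0.00229), and liver tissue above intestine tissue (3.43 ± 0.61, adjusted p = 0.0013). These held without any one array, the second with values from -4.29 to -1.94 over the omissions. A fit to the compared arrays alone did not call the second (adjusted p = 0.056).

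Where Car14 was split, calls came and went with 1 array. Gallbladder organoids minus tissue was -1.19 ± 0.61 (adjusted p = 0.135), and -2.36 (adjusted p = 0.00115) without gallbladder tissue replicate 1. For differentiated organoids the values were -1.49 (adjusted p = 0.0742) and -2.67 (adjusted p = 0.000593). Gallbladder minus intestine tissue was 0.31 (adjusted p = 0.705), and 1.49 (adjusted p = 0.0147) without gallbladder tissue replicate 1. Intestine organoids minus intestine tissue was -1.20 ± 0.61 (adjusted p = 0.166), and the adjusted p was 0.0147 without either gallbladder tissue array, which enters only through the shared spread. The same difference was -0.54 without intestine tissue replicate 1 and -1.85 without replicate 2, and it was not called in either case.

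Car8, the member without catalytic activity, was at its highest in the gallbladder, in culture and tissue alike. It read 11.73 and 11.66 in gallbladder organoids, 11.87 and 11.75 in differentiated organoids and 12.13 and 11.60 in gallbladder tissue, and these groups did not differ beyond their spread. Liver tissue was close at 10.99 and 11.80. Liver organoids (10.05 and 10.12), intestine organoids (10.12 and 9.54) and intestine tissue (9.03 and 9.05) were lower. Gallbladder organoids exceeded liver organoids by 1.61 ± 0.27 (3.05-fold, adjusted p = 0.00383) and intestine organoids by 1.86 ± 0.27 (3.64-fold, adjusted p = 0.000405). The arrays did not overlap in either comparison, and both calls held without any one array.

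Liver organoids lay below liver tissue in Car8 (-1.31 ± 0.27, adjusted p = 0.00232), while the gallbladder difference between organoids and tissue was -0.18 (95% interval -0.77 to 0.42). Gallbladder tissue exceeded intestine tissue by 2.83 ± 0.27 (adjusted p = 1.96e-05), and liver tissue did so by 2.36 ± 0.27 (adjusted p = 6.27e-05). Gallbladder tissue minus liver tissue was 0.47 (adjusted p = 0.17), and 0.88 (adjusted p = 0.0207) without liver tissue replicate 2. Intestine organoids exceeded intestine tissue by 0.79 ± 0.27 (adjusted p = 0.0421), a call that 9 of 14 single omissions ended, with adjusted p up to 0.286 without intestine organoid replicate 1 (0.50). IP3 receptors are calcium channels, and Car8 is known to bind a receptor of this group in neurons. Of the 3 listed, 2 were measured, Itpr2 and Itpr3, while Itpr1 was not among the genes tested. Itpr3 was 3.43 higher in liver organoids than in liver tissue and 2.46 higher in gallbladder than in liver tissue (adjusted p = 1.7e-06 and 2.84e-05), where Car8 was lower in the first comparison and not called in the second. Itpr2 was lower in gallbladder organoids than in gallbladder tissue (-1.41, adjusted p = 0.0011) and than in liver organoids (-0.85, adjusted p = 0.0489).

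Set side by side, more members were called between culture and tissue in liver than in the other organs. Liver organoids differed from liver tissue in 8 of 9 members, 5 lower (Car1, Car3, Car5a, Car8 and Car14) and 3 higher (Car2, Car12 and Car13), where 44.9% of all genes were called (26.7% higher and 18.2% lower); Car4 was the exception. The median member difference was -1.31, against 0.00 over all genes. Gallbladder organoids differed from gallbladder tissue in 4 members, all lower (Car1, Car3, Car4 and Car5a), where 47.9% of all genes were called (32.7% higher and 15.2% lower). The medians were -1.19 for members and 0.17 for all genes. Differentiated gallbladder organoids differed from the tissue in 5 members, the same 4 lower and Car13 higher, where 42.7% of all genes were called (28.6% higher and 14.1% lower), with medians of -1.46 and 0.12. Intestine organoids differed from intestine tissue in 4 members, Car3, Car4 and Car13 lower and Car8 higher, where 35.8% of all genes were called (20.2% higher and 15.6% lower), with medians of -0.52 and -0.02. The shares called in either direction in gallbladder and intestine were near the background of all genes, and the comparisons of both kinds of gallbladder organoid share the tissue arrays. The Car1 and Car5a calls of both kinds depended on single arrays, as given above. Fits to the compared arrays alone ended them for undifferentiated (adjusted p = 0.121 and 0.209) and differentiated organoids (0.116 and 0.169). Such fits also ended the Car8 and Car13 calls in intestine (0.0616 and 0.0807) and no call in liver.

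**Figure D2:**
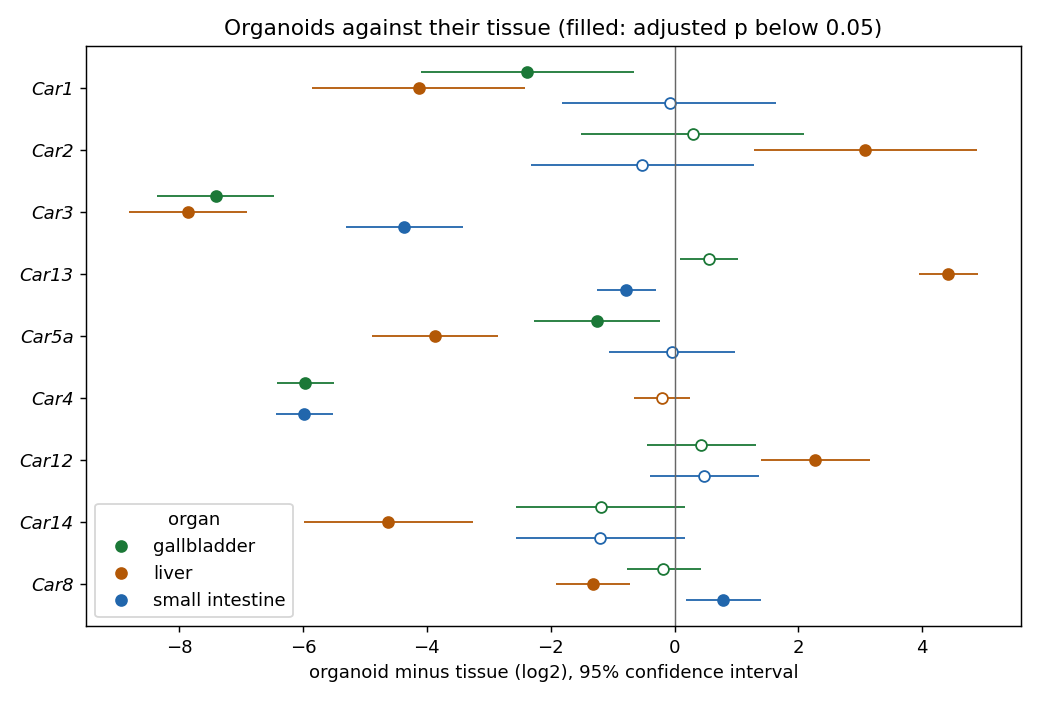
Organoid minus tissue difference (horizontal axis, log2 units) of each member in gallbladder, liver and small intestine; points are limma estimates from 2 arrays against 2, bars their 95% confidence intervals, and filled points have an adjusted p below 0.05. Car3 lies far left of 0 in all 3 organs, Car4 in gallbladder and intestine only (-5.96 and -5.98 against -0.21 in liver), and Car13, Car2 and Car12 lie right of 0 in liver (4.42, 3.08 and 2.27).

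Whether these culture changes differed between organs was tested as an interaction in the same fit. The change of the gallbladder differed from that of the liver in 6 of 9 members, 3 higher and 3 lower, where 39.8% of all genes were called (22.7% higher and 17.1% lower). The change of the gallbladder differed from that of the intestine in 2 members, where 36.6% were called (22.3% higher and 14.3% lower), and the liver's differed from the intestine's in 9 of 9, where 35.2% were called (19% higher and 16.2% lower). Car4 fell in gallbladder and intestine by amounts that differed by 0.02 (95% interval -0.63 to 0.67), and its change differed between gallbladder and liver (interaction -5.76 ± 0.29, adjusted p = 1.29e-06). Car13 separated all 3 pairs, with interactions of -3.87 ± 0.30 for gallbladder minus liver (adjusted p = 1.48e-05), 1.33 ± 0.30 for gallbladder minus intestine (adjusted p = 0.0076) and 5.20 ± 0.30 for liver minus intestine (adjusted p = 1.36e-06). For Car3 the fall was deeper in gallbladder than in intestine (-3.04 ± 0.60, adjusted p = 0.00384) and did not differ beyond error between gallbladder and liver (0.45, 95% interval -0.89 to 1.80). These Car4, Car13 and Car3 calls held without any one array. An interaction also holds the difference between tissues. Undifferentiated organoid means of Car3 were 5.86 to 6.31 in every organ, so its gallbladder and intestine changes differed mainly as the tissues did (3.49). Car4 in liver tissue (6.60) already lay among the undifferentiated organoid means (6.31 to 6.82).

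Between organoids of different origin, the shares of members called were near or below those of all genes. Gallbladder and liver organoids, grown in the same medium, differed in 1 member, Car8, where 12.7% of all genes were called (6.17% higher and 6.52% lower), with a median member difference of 0.35 against 0.05 over all genes. Fits to the compared arrays alone called 6, 8 and 4 members for gallbladder minus liver, gallbladder minus intestine and liver minus intestine organoids, where they called 7092, 11709 and 7852 of 19938 genes. Gallbladder and intestine organoids differed in 3 members, Car2 and Car8 higher and Car13 lower, where 35.6% were called (20.2% higher and 15.4% lower), with medians of 0.32 and 0.11. Liver and intestine organoids differed in Car2 alone, where 26.5% were called (14.2% higher and 12.2% lower). Withdrawal of nicotinamide, noggin and R-spondin 1 changed no member by limma, where 4.73% of all genes were called (2.8% higher and 1.93% lower). By limma 1 member, Car13, had an unadjusted p below 0.05. A fit to the 4 arrays alone called 3 members (Car12 at -0.27, Car13 at 0.81 and Car14 at -0.30) among 5353 of 19938 genes, and array weights called Car13 among 5720. For Car2 the interval of the withdrawal difference ran from -1.76 to 1.84 and for Car4 from -0.40 to 0.51. These widths come from the spread pooled over all 7 groups, which for Car2 holds the intestine tissue pair (SD 2.429). Undifferentiated and differentiated gallbladder organoids themselves had SDs of 0.027 and 0.042 in Car2, and 0.182 and 0.048 in Car4.

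Tissue set against tissue, liver and intestine differed in 8 of 9 members (5 higher in liver and 3 lower; Car2 was not called), where 37.5% of all genes were called (18.7% higher and 18.8% lower), with medians of 2.36 for members and 0.04 for all genes. Gallbladder and liver tissue differed in 6 members (Car2, Car4, Car12 and Car13 higher in gallbladder, Car5a and Car14 lower), where 48.1% were called (20.7% higher and 27.4% lower), with medians of 0.47 and -0.09. Gallbladder and intestine tissue differed in 6 (Car1, Car2, Car3, Car5a and Car8 higher, Car13 lower), where 45% were called (20.7% higher and 24.3% lower), with medians of 1.36 and -0.04. These comparisons share tissue arrays with each other and with the culture comparisons. Fits to the compared arrays alone called 8, 4 and 3 members for liver minus intestine, gallbladder minus liver and gallbladder minus intestine tissue. They called 3962, 3824 and 3224 of 19938 genes there. Between gallbladder and liver, Car5a and Car14 lost their calls in that fit (adjusted p = 0.0636 and 0.056). Between gallbladder and intestine, Car1, Car2 and Car5a lost theirs (adjusted p = 0.129, 0.11 and 0.227). An exact permutation test of 2 arrays against 2 has a smallest 2-sided p of 0.333, so single values could be tested only through limma's pooled spread.

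**Figure D3:**
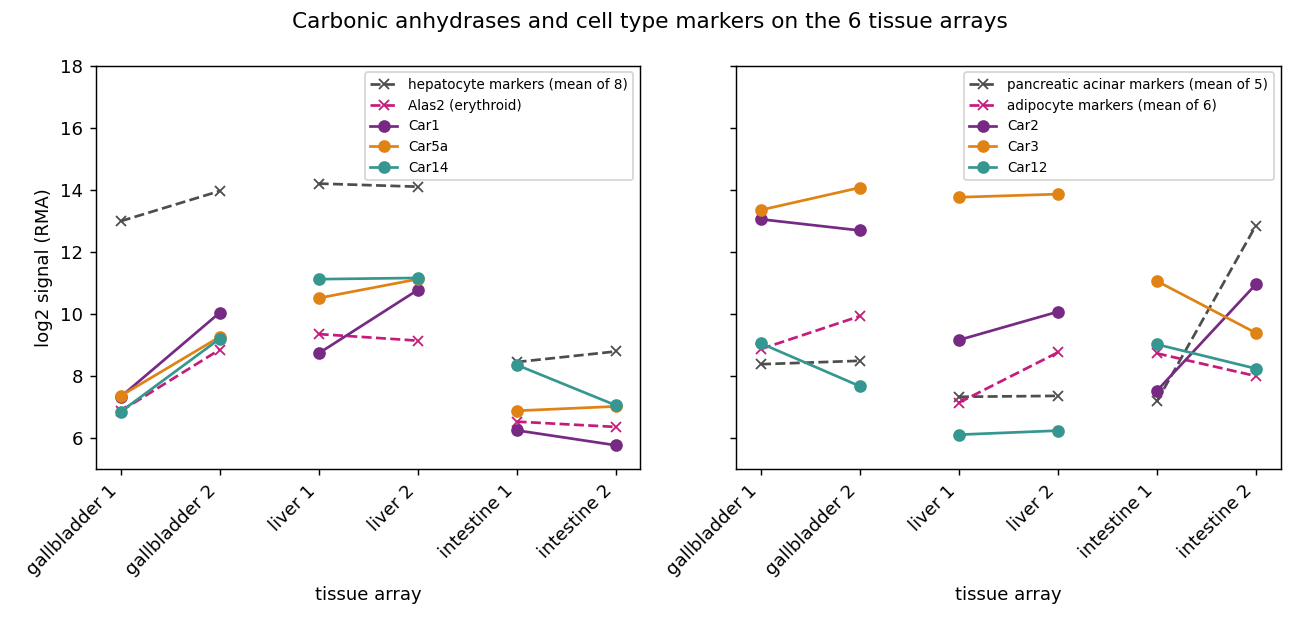
Log2 RMA signal (vertical axis) of 6 members on the 6 tissue arrays, with cell type markers dashed; lines join the arrays of a tissue, which have no order, and levels are to be compared only within a gene or list. In gallbladder tissue Car1, Car5a, Car14 and Alas2 are all higher on replicate 2 (10.04, 9.26, 9.20 and 8.85), and in intestine tissue Car2 and the acinar markers are both higher on replicate 2 (10.95 and 12.84).

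The split between the gallbladder tissue arrays ran through the family. Replicate 2 was higher in Car1, Car3, Car4, Car5a and Car14 and lower in Car2, Car8, Car12 and Car13. The differences in Car1 (7.33 and 10.04), Car5a (7.36 and 9.26) and Car14 (6.85 and 9.20) were the widest, those of Car4 (12.15 and 12.39) and Car2 (13.05 and 12.69) the narrowest. The listed bile duct and gallbladder markers, which intestine shared, were lower on replicate 2 (10.60 and 10.08), as were smooth muscle markers. The hepatocyte, adipocyte and endothelial markers were higher. In intestine tissue, replicate 2 was higher in Car2, Car4 and Car5a, level in Car8 (9.03 and 9.05) and lower in the other members, while immune markers read 9.46 and 10.47. Which of these cells the members came from was not tested.

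Over the 14 arrays, the members with the most similar profiles were Car5a and Car14 (Pearson r = 0.951) and Car5a and Car1 (0.929), and the most opposed were Car5a and Car13 (-0.942). These values describe arrays that share groups, and tissue and culture arrays lie apart in many of them. Genomic neighbours differed in how alike they were. Car13, Car1, Car3 and Car2 are consecutive protein-coding genes on chromosome 3 in the RefSeq order (GRCm38.p6), between Rbis and Gm9733. Among them Car1 and Car3 correlated at 0.832, Car13 and Car1 at -0.829, Car13 and Car3 at -0.652, and Car2 with the other 3 at -0.23 to 0.10. Car14 lies on the same chromosome between Aph1a and Anp32e.

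Among all 19938 genes, the profile most like Car2 was that of Muc1, an epithelial surface mucin (Pearson r = 0.963, Spearman rho = 0.921 over 14 arrays). Car13 was most like Arhgef16 (r = 0.997, rho = 0.934) and Car12 most like Dll1, a Notch ligand (r = 0.956, rho = 0.886). Car1 followed Keg1 (r = 0.980) and Cyp7a1 (r = 0.979), the rate-limiting enzyme of bile acid synthesis, although the rank correlations were lower (0.732 and 0.837). Car5a followed Slc25a21 (r = 0.997, rho = 0.662), Lin7a (r = 0.997) and Clec4g (r = 0.996), and Car14 followed Aspg (r = 0.987, rho = 0.877). Car3 was most like Abcc9 (r = 0.995, rho = 0.974), then Stab1, a receptor of sinusoidal endothelium (r = 0.990). Car4 was most like Chrm2, a muscarinic receptor of smooth muscle (r = 0.987, rho = 0.780), then Cdh11 and the smooth muscle actin Actg2 (r = 0.968, rho = 0.596). Car8 was most like Arsb (r = 0.964, rho = 0.811). All points share the 7 groups, so genes of one tissue or of all tissues resemble each other whatever cell they mark.

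**Figure D4:**
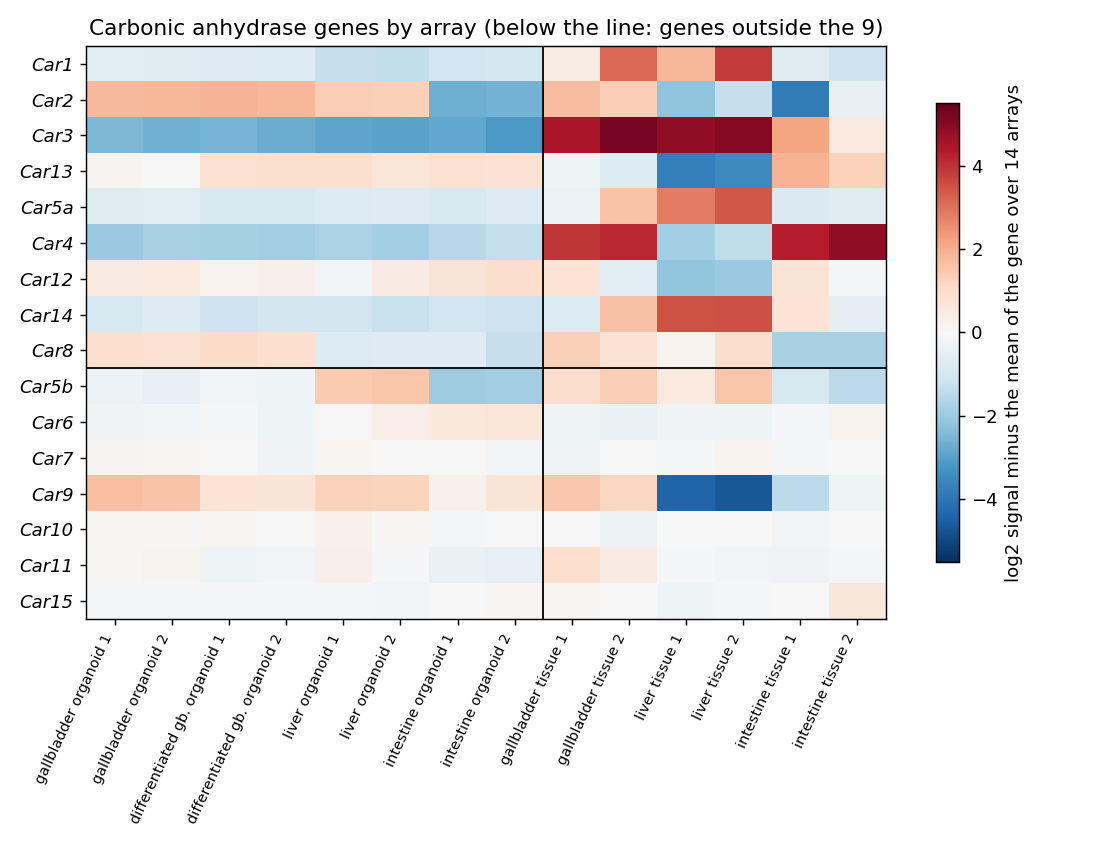
Log2 signal minus the gene's own mean over the 14 arrays (colour, log2 units) for the 9 members above the horizontal line and the 7 other measured carbonic anhydrases below it, by array, with organoids left of the vertical line (gb., gallbladder). Car9 is low in liver tissue (6.86 and 6.60) and, by group mean, highest in gallbladder organoids (12.86), while Car6, Car7, Car10 and Car15 span under 1 log2 unit between group means.

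Of the 7 other carbonic anhydrases measured, Car9 and Car5b had the wide ranges (6.13 and 3.42 log2 units between group means), and Car6, Car7, Car10 and Car15 spanned 0.89, 0.24, 0.28 and 0.48. Car9, a membrane enzyme known from hypoxia and from gallbladder epithelium, averaged 12.86 in gallbladder organoids, 12.52 in liver organoids and 12.55 in gallbladder tissue, against 6.73 in liver tissue. Liver organoids exceeded liver tissue in Car9 by 5.78 ± 0.31 (adjusted p = 3.7e-07) and intestine organoids exceeded intestine tissue by 1.31 ± 0.31 (adjusted p = 0.0084). Car5b, the other mitochondrial form, was high in liver organoids, where Car5a was low. Both were higher in gallbladder and liver tissue than in intestine tissue in the fit of 14 arrays. For Car5b these differences were 2.32 ± 0.29 (adjusted p = 0.000118) and 2.20 ± 0.29 (adjusted p = 0.000158). Car5b averaged 9.53 in liver organoids, 9.09 in liver tissue and 6.11 in intestine organoids. Liver organoids exceeded gallbladder organoids in it (gallbladder minus liver -1.87 ± 0.29, adjusted p = 0.00243) and intestine organoids (3.42 ± 0.29, adjusted p = 9.75e-06). Of the 7, differentiation changed none by limma at an adjusted p below 0.05, where 4.73% of all genes were called. Car9 was at -0.88 (adjusted p = 0.181).

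The other enzymes of the pathway listed were 9 that use bicarbonate as a substrate (Cps1, Pcx and the acetyl-CoA, propionyl-CoA and methylcrotonyl-CoA carboxylases among them). Of these 9, 8 were lower in liver organoids than in liver tissue and 0 higher, where 18.2% of all genes were lower and 26.7% higher, with a median of -1.96 against 0.00 over all genes. In liver against intestine tissue, 8 were higher and 0 lower, where 18.7% of all genes were higher. Cps1, the first enzyme of the urea cycle and the user of mitochondrial bicarbonate, differed by -7.79 ± 0.36 between liver organoids and liver tissue (adjusted p = 1.31e-07), and Pcx by -2.34 ± 0.48 (adjusted p = 0.0025), in the comparison in which Car5a differed by -3.87. Intestine organoids averaged 13.07 in Cps1 and gallbladder organoids 6.89 (difference -6.18 ± 0.36, adjusted p = 7.92e-07), while Car5a was low in both. In gallbladder tissue Cps1 averaged 13.06, and organoids lay below it (-6.17 ± 0.36, adjusted p = 9.38e-07).

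Bicarbonate and acid carriers, which move what the anhydrases make, were measured for 27 of 29 listed genes. Differentiation raised 5 and lowered 1, where 4.73% of all genes were called. Slc9a4 rose by 2.20 ± 0.26 (adjusted p = 0.00103), the proton pump subunit Atp6v0a4 by 1.98 ± 0.36 (adjusted p = 0.0109), the chloride-bicarbonate exchanger Slc26a3 by 1.52 ± 0.17 (adjusted p = 0.000639) and the sodium-proton exchanger Slc9a2 by 1.37 ± 0.17 (adjusted p = 0.00147). Gallbladder organoids had 10 carriers higher and 5 lower than gallbladder tissue, where 47.9% of all genes were called, with a median of 0.20 against 0.17 over all genes. Slc26a3 differed by -7.26 ± 0.17 (adjusted p = 5.54e-09), in the same comparison as the fall of Car4, and the tissue read 12.42 and 12.54. In intestine organoids Slc26a3 averaged 11.29 and differed from intestine tissue by -0.67 ± 0.17 (adjusted p = 0.01), in the comparison in which Car4 differed by -5.98. Liver organoids had 12 carriers higher and 4 lower than liver tissue, where 44.9% of all genes were called, among them Slc26a9 (4.37 ± 0.42, adjusted p = 1.61e-05) and Slc4a11 (3.27 ± 0.20, adjusted p = 7.19e-07), in the comparison in which Car2, Car12 and Car13 rose. Gallbladder organoids differed from liver organoids in 8 carriers, 5 higher and 3 lower, where 12.7% of all genes were called, with Slc9a3 at 3.01 ± 0.36 (adjusted p = 0.000618) and Cftr, the chloride and bicarbonate channel, at 1.26 ± 0.21 (adjusted p = 0.00374), where Car8 was the member called.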

How the data were processed

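RNA of 14 samples was hybridised to Affymetrix gene arrays, 1 array per sample, labelled with the GeneChip WT terminal labeling kit per the labels' protocols. Each deposited value is a log2 signal per probe set, computed with RMA (robust multi-array averaging) by the authors, per the submitters' processing notes; its version, and the background and summary settings, are not given in the sources used here. RMA normalises between arrays and compresses very low and very high signals. Raw signals and detection calls were not used here, so a probe set's noise floor is unknown; precision is limited by how many arrays there are.

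Of 35556 probe sets, 21789 had 1 gene symbol, 1621 several and 12146 none in the platform annotation. Probe sets with 1 symbol were used, and of 999 genes with several, the probe set with the highest mean was kept, which gave 19938 genes. RefSeq (GRCm38.p6) was used for names (21698 symbols matched, 0 changed), gene order and promoter sequences. Whether probes of related carbonic anhydrases cross-hybridise was not tested.

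Groups came from the sample titles. limma 3.58.1 in R 4.3.3 fitted 1 mean per group to all 14 arrays (7 residual degrees of freedom, 9.91 with the prior), and p-values of 11 comparisons and 3 interactions were 2-sided and Benjamini-Hochberg adjusted over all genes; called means an adjusted p below 0.05. All 9 members were described; list members named are the up to 4 with the largest called difference, and a few with given values were chosen after these were seen; profiles alike are the 3 highest Pearson correlations, of which some are named. The members and lists were chosen with earlier results of these data known. Alternatives were quantile normalisation, median centring, leaving out the dimmest 40% of genes, averaging probe sets, fitting only the compared arrays, array weights, an intensity trend with a robust prior, a block for the replicate number, and omitting each array. The fit was also run on simulated data with the same spread in all groups. That run cannot show how the fit handles the wider spread of the tissue arrays.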

Additional observations from a re-analysis of the deposited data

Results flagged for a closer look

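The change from tissue to organoid differed between organs, by the interaction term of the limma fit, for the following members, with values as differences of log2 differences. Between gallbladder and liver the interaction was -5.76 for Car4, -3.87 for Car13, 3.44 for Car14 (adjusted p = 0.011), 2.62 for Car5a (adjusted p = 0.0102), -1.84 for Car12 (adjusted p = 0.0254) and 1.14 for Car8 (adjusted p = 0.0369). Without gallbladder tissue replicate 1 the Car5a, Car12 and Car14 values were 1.67, -1.14 and 2.26, still called. The Car12 call was lost in 4 of 14 single omissions (adjusted p = 0.0625 to 0.0963) and the Car8 call in 8 (adjusted p = 0.0541 to 0.107). Between gallbladder and intestine it was -3.04 for Car3 and 1.33 for Car13. Of all genes, 39.8% were called between gallbladder and liver and 36.6% between gallbladder and intestine. Each interaction also holds the difference between the tissues, as described above for Car3 and Car4.

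Between liver and intestine all 9 members differed, where 35.2% of all genes were called. The interaction was 5.78 for Car4, 5.20 for Car13, 3.60 for Car2 (adjusted p = 0.0326), 1.79 for Car12 (adjusted p = 0.0305), -2.10 for Car8, -3.43 for Car14 (adjusted p = 0.0109), -3.50 for Car3, -3.83 for Car5a and -4.05 for Car1 (adjusted p = 0.0154). The Car2 call was lost in 5 single omissions, Car12 in 6 and Car1 in 1 (liver tissue replicate 2, -3.03, adjusted p = 0.0519). Both the Car2 and the Car12 call ended without liver tissue replicate 1 (3.14 and 1.72), and Car2 ranged from 1.88 to 5.32 according to which intestine tissue array was left out.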

How the results depend on the processing

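Of 126 member differences, 63 were called, in comparisons where 4.73% to 48.1% of all genes were called. Of these 63, 47 held in all 14 omissions of 1 array. The sign turned with a call in 2: Car2, intestine organoids minus tissue, was 1.20 without intestine tissue replicate 2 (-2.23 without replicate 1), and Car2, liver minus intestine tissue, was -1.34 without intestine tissue replicate 1 (2.10 without replicate 2). Members called ranged over the omissions from 0 to 1 for differentiated minus undifferentiated gallbladder organoids, 1 to 2 for gallbladder minus liver organoids, 2 to 4 for gallbladder minus intestine organoids, 1 to 1 for liver minus intestine organoids, 2 to 7 and 3 to 6 for gallbladder and differentiated organoids minus tissue, 7 to 8 for liver and 2 to 5 for intestine organoids minus tissue. For tissues they ranged from 5 to 7 (gallbladder minus liver), 4 to 8 (gallbladder minus intestine) and 8 to 9 (liver minus intestine), and for interactions from 4 to 7, 2 to 4 and 7 to 9.

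Fitting only the compared arrays called 3 members for differentiation, 6, 8 and 4 for the organoid pairs in that order, 2 and 3 for gallbladder and differentiated organoids minus tissue, 2 for intestine organoids minus tissue and 3 for gallbladder minus intestine tissue. In the same order it called 5353, then 7092, 11709 and 7852, then 7287 and 6362, 5575 and 3224 of 19938 genes. The fit of 14 arrays called 943 for differentiation and 8973 for gallbladder minus intestine tissue. For gallbladder minus liver tissue, fitting only the compared arrays called 4 members among 3824 genes. There the fit of 14 arrays called 6 among 9597. Array weights called 1 for differentiation and 2, 5 and 3 for the organoid pairs, where they called 5720, 7399, 12112 and 8191 genes. Gallbladder minus liver organoids gave 2 with median centring, without the dimmest genes and with the replicate block, in each case by adding Car13. Without the dimmest 40% of genes, 8 of 9 members were tested, Car1 (mean 6.925) not. Centring ended the Car5a calls of gallbladder organoids minus tissue (-1.08, adjusted p = 0.0654) and gallbladder minus intestine tissue (1.20, adjusted p = 0.0507). The cause of these changes was not tested beyond the number of arrays in the spread.

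The replicate numbers gave no sign of pairing: deviations of same-numbered arrays correlated from -0.104 to 0.139 over 21 pairs of groups (median -0.00315, 2 over 0.1). Such correlations cannot tell whether same-numbered arrays shared a mouse or culture. The replicate block ended 1 member call (Car8, intestine organoids minus tissue, adjusted p = 0.0552) and added 4: Car13 in gallbladder minus liver organoids (0.0435) and gallbladder organoids minus tissue (0.0439), Car4 in gallbladder minus intestine organoids (0.0426) and gallbladder minus intestine tissue (0.0304).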
